A study of Mus musculus with 8 samples.

Results

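The mouse genes that encode collagen chains were examined in NIH3T3 fibroblasts treated with Mic-628 or with vehicle. Members were all rows of the deposited tables whose gene symbol has the form of a collagen chain name (Col, a type number, a, a chain number). This gave 44 genes, each with 1 row, among 78298 rows in all. They were grouped by textbook class into 11 fibrillar, 6 basement membrane, 9 FACIT and 18 other chains. FACIT stands for fibril-associated collagens with interrupted helices.

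NIH3T3 is a line of mouse embryonic fibroblasts, labelled as wild type, and was grown in medium with fetal bovine serum. The 4 vehicle and 4 Mic-628 libraries of poly(A) RNA were taken after 1 day of treatment. A batch number from 1 to 4 in the labels ties each vehicle library to 1 Mic-628 library. The labels give neither a dose nor the vehicle's name, and nothing in them states that replicates were grown separately. The p-values therefore cover variation among these libraries alone, possibly technical, and the results hold for 1 cell line. The counts on listed transcripts summed to between 18106347 and 23158317 per library, or 92.3% to 93.1% of the totals in the file headers. Per1, which the series title names as the induced gene, served as a check of the labels and had 4.10 to 4.58 FPKM with vehicle and 23.7 to 26.1 FPKM with Mic-628. FPKM, fragments per kilobase of exon scaled to library size, is a level that can be compared between genes.

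Collagens are the main structural proteins of the extracellular matrix, and each molecule is a trimer of chains wound around each other. Fibrillar collagens assemble into the cross-striated fibrils of connective tissue, type IV collagen forms the sheet-like network of basement membranes, and FACIT collagens sit on the surface of fibrils. Chains are hydroxylated and glycosylated in the endoplasmic reticulum, exported as procollagen, trimmed outside the cell and cross-linked. Fibroblasts are the chief source of types I, III, V and VI.

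Transcripts of 7 collagen chains fell with Mic-628 and 0 rose. The fallers were the fibrillar chains Col3a1 and Col1a2, the basement membrane chains Col4a1 and Col4a2, the FACIT chain Col12a1, and the type VI chains Col6a1 and Col6a2. Col3a1 fell by 32.6%, and Col12a1 fell by 33.8%. The other 5 fell by 7.61% to 10.9%. A gene is called here when its adjusted p in edgeR's quasi-likelihood test, over 17128 tested rows, is under 0.05. The test could be made for 26 of the 44 genes, and 19 of these were not called. Over all tested rows, 2.25% were called lower, 2.13% higher and 4.37% either way. A mean of at least 10 FPKM, a bound set after the values were seen, was reached by 14 of the 26 tested members and 6637 of the 17128 rows. Above it, 6 of the 14 members and 3.8% of all rows were called lower. Col21a1 was not analysed here.

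Over the 26 tested members the median log2 fold change (Mic-628 minus vehicle, called the log2 change from here on) was -0.06, with 21 values below 0 and 5 above. Over all tested rows the median was -0.004 and 51.6% of values were below 0. At an unadjusted p under 0.05, 10 members were lower and 0 higher, against 8.81% and 8.15% of all tested rows. Every Mic-628 library lay below every vehicle library for 9 members, and above for 0. Among all tested rows that complete separation occurred downward in 5.07% and upward in 5.63%. How many members were called depended on the tool and the batches, as did the background. With the batch block, edgeR called 6 lower (1.91% of all rows). DESeq2 called 6 (1.68%), or 4 with the block (0.695%). Limma-trend on FPKM values called 2, Col3a1 and Col1a2, with a mean of at least 0.5 FPKM and a pseudocount of 1 or 0.1 (0.715% and 0.709%), and 0 over all rows (0.16%). Without batch 2 or batch 3, edgeR called 2, Col3a1 and Col12a1 (0.847% and 0.745%). It called 6 without batch 1 (2.14%) and 7 without batch 4 (2.2%). At an adjusted p under 0.01 it called 5 (0.917%).

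In these bulk libraries, fewer cells that make a transcript and less of it per cell cannot be told apart.

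**Figure D1:**
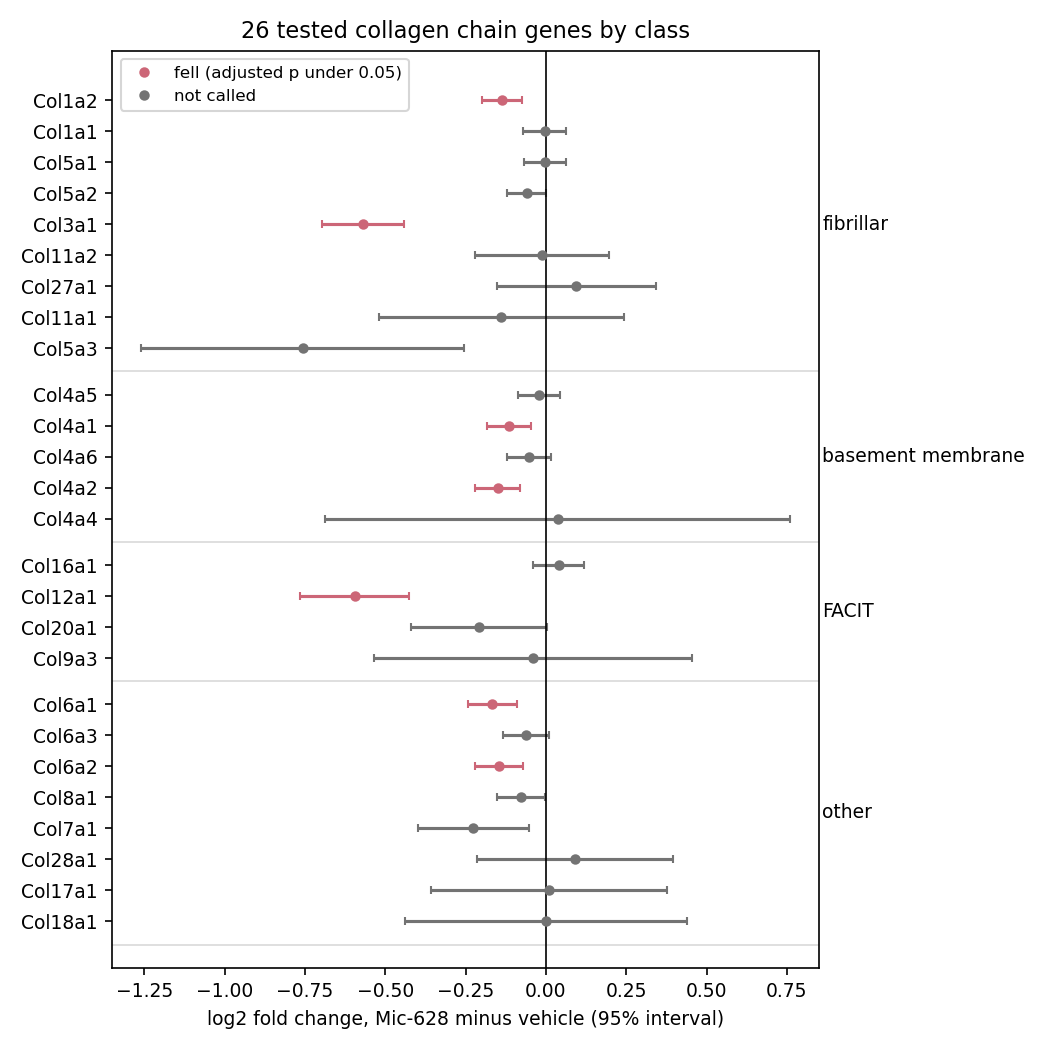
The log2 change of each of the 26 tested collagen chain genes (horizontal axis, Mic-628 minus vehicle) is drawn with its 95% interval, by class and from the highest to the lowest mean FPKM within a class. The 7 genes in red fell; Col3a1 (-0.57) and Col12a1 (-0.60) stand apart from the other 5, and intervals widen toward the weakly expressed genes.

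Collagen transcripts as a whole were slightly less abundant with Mic-628. The FPKM of all 44 genes summed to 920, 937, 926 and 885 in vehicle libraries 1 to 4 and to 843, 867, 854 and 851 in the Mic-628 libraries, so the groups did not overlap. The mean went from 917 ± 22.3 to 854 ± 9.94 FPKM (SD, n = 4 each), a difference of -6.93%. Col1a2 alone made up 52.5% of the summed collagen FPKM with vehicle and 51.3% with Mic-628. Without Col1a2 the sums ran from 418 to 446 FPKM with vehicle and from 411 to 422 FPKM with Mic-628, and the groups overlapped. By class, the summed level differed by -7.64% for fibrillar, -5.25% for basement membrane, 0.846% for FACIT and -8.07% for the other chains. Single genes weigh heavily in 2 of these figures. With vehicle, Col1a2 made up 481 of 659 FPKM of the fibrillar sum and Col16a1 53.7 of 57.6 FPKM of the FACIT sum. The FACIT figure therefore does not show the fall of Col12a1, at 2.31 FPKM with vehicle. These sums are descriptions and were not tested.

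Type III collagen forms fine, pliable fibrils with type I in skin, vessels and healing wounds, and all of its chains come from Col3a1. Col3a1 lies on chromosome 1 from 45350698 to 45388866 on the plus strand (mm39). Its level was 16.8, 16.1, 14.3 and 12.9 FPKM in vehicle libraries 1 to 4 and 9.50, 11.002, 9.37 and 10.5 FPKM in the Mic-628 libraries. The highest Mic-628 library was below the lowest vehicle library, although the vehicle libraries were themselves spread (15.01 ± 1.79 against 10.1 ± 0.787 FPKM, SD, n = 4 each). The log2 change was -0.57 (SE 0.062, 95% interval -0.70 to -0.44, edgeR adjusted p = 8.57e-07). The batch pair differences ran from -0.81 to -0.29 on the log2 scale, all below 0 because the groups did not overlap. Of 23 alternative analyses, the call was lost in 1, limma-trend on log2(FPKM + 1) over all rows (adjusted p = 0.0529).

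The bases just upstream of Col3a1 and of Col6a2 are shown because these fallers come from different classes and their promoters differ in composition. The sequences are RefSeq promoter windows of build GRCm38.p6, an earlier build than that of the counts, without the transcribed bases. Both windows end at the start that GENCODE M21 gives for the transcript counted. Col3a1 is at chr1:45311288-45311537 (plus strand) and Col6a2 at chr10:76623631-76623880 (minus strand), each 250 bases long and written 5′ to 3′ toward the start. Capitals mark TATAAA and GGGCGG on either strand, the letters of a TATA box and of a GC box.
Col3a1: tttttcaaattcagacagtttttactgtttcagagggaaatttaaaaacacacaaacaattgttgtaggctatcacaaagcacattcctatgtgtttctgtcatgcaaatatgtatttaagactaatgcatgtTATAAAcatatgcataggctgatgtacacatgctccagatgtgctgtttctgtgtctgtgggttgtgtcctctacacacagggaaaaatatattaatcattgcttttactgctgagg
Col6a2: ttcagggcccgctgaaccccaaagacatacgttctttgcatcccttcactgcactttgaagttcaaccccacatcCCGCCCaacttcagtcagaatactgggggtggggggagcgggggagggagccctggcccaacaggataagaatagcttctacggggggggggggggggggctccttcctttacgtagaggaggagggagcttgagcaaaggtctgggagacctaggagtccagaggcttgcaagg
The Col3a1 window was 35.2% G or C and held 1 TATAAA that began 117 bases before the start; the Col6a2 window was 59.2% G or C and held 1 match to the GC box.

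Promoter windows were at hand for 22 of the 26 tested members and for 27025 genes in all. The members had passed the filter on low counts, while the 27025 genes were not filtered by expression. The shares below therefore compare unlike sets. A gene was counted when any of its windows of 250 bases held the letters. The E-box letters CACGTG, which CLOCK and BMAL1 bind, were in 0 of the 22 members and in 6.86% of all genes. AGGTCA (or TGACCT), the core of many nuclear receptor sites, was in 4 of 22, none of them a faller, against 15.8% of all genes. GGGCGG (or CCGCCC) was in 14 of 22 and 3 of the 6 fallers with a window, against 35.4% of all genes. CCAAT (or ATTGG) was in 10 of 22 and 3 of 6 fallers, against 37.5%, and TATAAA (or TTTATA) in 3 of 22 and 1 of 6 fallers, against 14.3%. No motif searched contains another. These are matches of letters in a short window and do not show binding.

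Type I collagen, the main fibrillar collagen of bone, tendon and dermis, is built from the products of Col1a1 and Col1a2. Col1a2 (chromosome 6, 4505493 to 4541544, plus strand) was the most abundant collagen transcript. It had 483, 491, 484 and 467 FPKM in vehicle libraries 1 to 4 and 427, 445, 442 and 436 FPKM with Mic-628. All 4 Mic-628 libraries were lower than all vehicle libraries. The difference was small and tight: Col1a2 fell by 9.004% (95% interval -12.8% to -5.04%), a log2 change of -0.14 (SE 0.030; edgeR adjusted p = 0.00708). The call was lost when batch 2 or batch 3 was left out (adjusted p = 0.106 and 0.0956). An antisense row inside Col1a2, ENSMUST00000252582.1, had 6.10% of its count and a log2 change of -0.11 (adjusted p = 0.0569). Whether the counting used strand is not given in the sources used here.

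Col1a1 (chromosome 11, 94827050 to 94843868, plus strand), its partner, had 77.1, 82.7, 81.3 and 78.9 FPKM with vehicle and 80.1, 78.03, 83.4 and 77.5 FPKM with Mic-628. The groups overlapped fully, and its log2 change of -0.0044 (95% interval -0.07 to 0.06) was not called and changed sign between settings. Per exon length, Col1a1 stood at 0.166 ± 0.00448 of Col1a2 with vehicle and 0.182 ± 0.00664 with Mic-628 (FPKM ratio, SD, n = 4 each). That ratio was higher in every Mic-628 library than in any vehicle library.

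Type V collagen is a minor component inside type I fibrils that limits their diameter. Col5a1 had 41.1 ± 1.42 FPKM with vehicle and 41.0 ± 0.711 FPKM with Mic-628 (SD, n = 4 each) and was not called; its log2 change was near 0 and changed sign between settings. Col5a2 was 39.5, 39.6, 40.6 and 39.6 FPKM with vehicle and 38.4, 38.9, 37.7 and 37.9 FPKM with Mic-628. The libraries of Col5a2 did not overlap between groups, yet its log2 change of -0.06 (95% interval -0.12 to 0.001) was not called (edgeR adjusted p = 0.306). Col5a2 ends 24614 bases from the end of Col3a1 on the opposite strand, so these convergent neighbours had log2 changes of -0.06 and -0.57.

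The third type V chain, Col5a3, was weakly expressed and gave the lowest estimate of all members. It had 0.203, 0.157, 0.148 and 0.163 FPKM with vehicle and 0.085, 0.073, 0.144 and 0.088 FPKM with Mic-628. The groups were separate, but Mic-628 library 3 lay just under the vehicle libraries. Its log2 change of -0.76 had a 95% interval from -1.26 to -0.25 and was not called (edgeR adjusted p = 0.0816). The remaining tested fibrillar chains, Col11a1, Col11a2 and Col27a1, were at 0.206, 1.04 and 0.497 FPKM on average and were not called. In all, 2 of 9 tested fibrillar chains fell, where 2.25% of all tested rows were called lower.

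**Figure D2:**
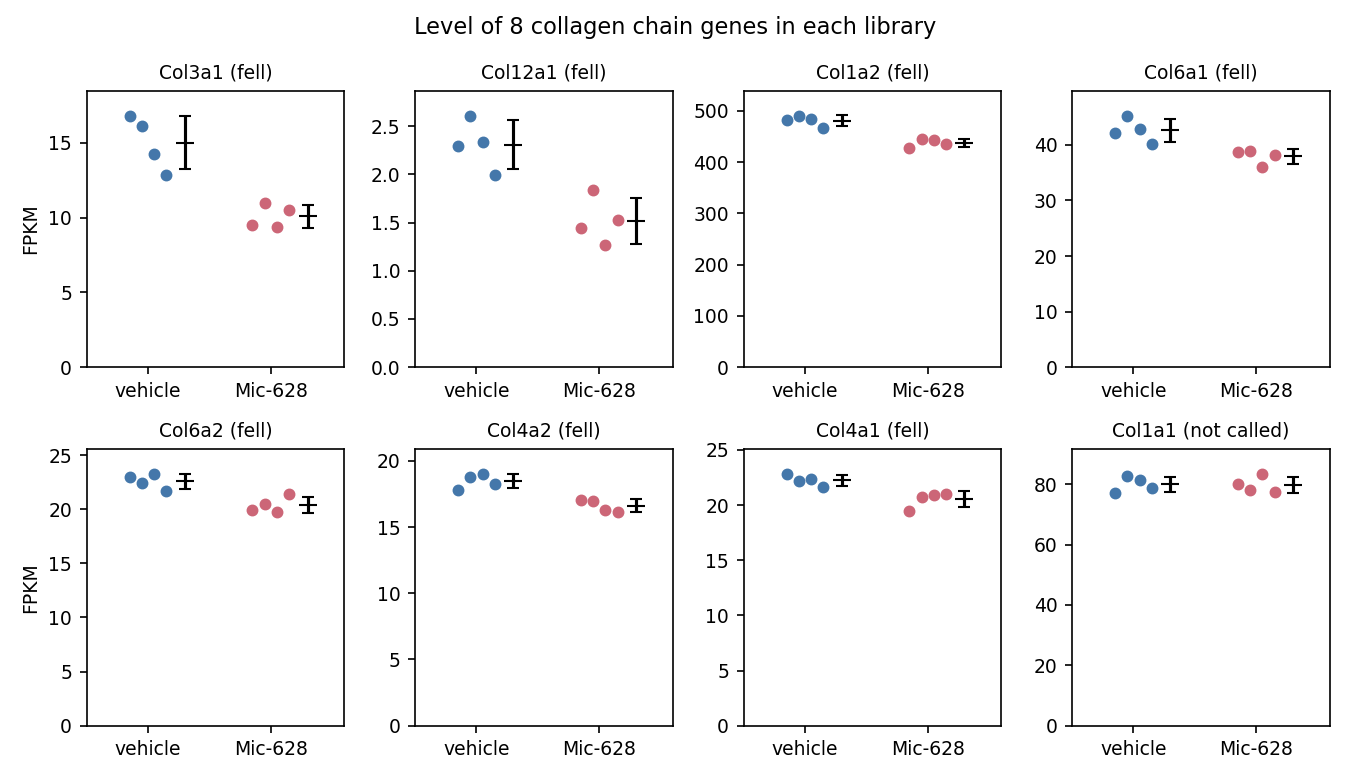
FPKM (vertical axis, from 0) in each of the 4 vehicle (blue) and 4 Mic-628 (red) libraries, in order of batch number, with the mean and SD in black, for the 7 collagen chain genes that fell and for Col1a1. Groups are apart in the first 7 panels and overlap for Col1a1 (80.0 and 79.8 FPKM on average).

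Col4a1 and Col4a2 encode the chains of the type IV network found in nearly all basement membranes. They lie head to head on chromosome 8, Col4a1 from 11248423 to 11362826 on the minus strand and Col4a2 from 11362805 to 11499287 on the plus strand, so their first bases overlap by 22. Col4a2 had 17.8, 18.8, 19.0 and 18.2 FPKM with vehicle and 17.0, 17.0, 16.3 and 16.1 FPKM with Mic-628. Its libraries did not overlap between groups, and it fell by a log2 change of -0.15 (SE 0.034, edgeR adjusted p = 0.00860). Col4a1 had 22.8, 22.2, 22.4 and 21.6 FPKM with vehicle and 19.4, 20.8, 20.9 and 21.0 FPKM with Mic-628. Its libraries did not overlap either, but the log2 change of -0.11 (SE 0.033) was at the edge of the threshold (edgeR adjusted p = 0.0475). With the batch number as a block it was not called (adjusted p = 0.0965). Nor was it called in DESeq2 (0.0542), with DESeq2 size factors (0.0520), with library size only (0.0624) or with no filter on low counts (0.0577), and it was called in 4 of 23 alternatives. The call held without vehicle library 4 but ended without any other single library (adjusted p 0.0570 to 0.159). Col4a2 was not called with the block in DESeq2 (adjusted p = 0.139) or without batch 2 or 3 (0.0893 and 0.156).

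Col4a5 and Col4a6, another divergent pair whose starts are 1308 bases apart on chromosome X, encode chains of a type IV network of kidney, smooth muscle and skin. Col4a5 was the most abundant basement membrane chain, with 28.8 ± 0.696 FPKM with vehicle and 28.3 ± 0.787 FPKM with Mic-628 (SD, n = 4 each; log2 change -0.02, not called). Col4a6 had 18.3 ± 0.461 and 17.6 ± 0.534 FPKM (SD, n = 4 each; log2 change -0.05, not called). Both overlapped between groups. Col4a4 just passed the filter on low counts, with a mean count of 9.88, and its interval from -0.69 to 0.76 holds no information on direction. Of 5 tested type IV chains, 2 fell, against 2.25% of all tested rows.

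Among the FACIT collagens, Col12a1 and Col16a1 differed in level and in response. Type XII collagen sits on the surface of type I fibrils in tendon, ligament and fascia. Col12a1 (chromosome 9, 79506273 to 79625800, minus strand) had 2.29, 2.61, 2.33 and 1.99 FPKM with vehicle and 1.44, 1.84, 1.27 and 1.53 FPKM with Mic-628. The highest Mic-628 library was below the lowest vehicle library. It fell by 33.8%, a log2 change of -0.60 (SE 0.083, edgeR adjusted p = 3.55e-05). Limma-trend on FPKM values did not call it under any of its 3 settings (adjusted p 0.0598, 0.0634 and 0.159), while each count-based alternative did.

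Col16a1, which encodes a chain found near fibrils and cell adhesion sites, was number 3 in level among all collagen transcripts. It had 56.5, 55.3, 54.0 and 48.9 FPKM with vehicle and 54.3, 56.4, 53.3 and 56.5 FPKM with Mic-628. The groups overlapped, and its log2 change of 0.04 (95% interval -0.04 to 0.12) was not called. Col20a1 had 1.26 ± 0.0821 and 1.095 ± 0.0695 FPKM (SD, n = 4 each) and was not called (edgeR adjusted p = 0.305); the row 9230112E08Rik on the same strand overlaps it and had 118.4% of its count, so reads may be shared. Col9a3, at 0.263 FPKM, was not called. Thus 1 of 4 tested FACIT chains fell, against 2.25% of all tested rows.

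Type VI collagen forms beaded microfibrils around fibroblasts and muscle fibres from the products of Col6a1, Col6a2 and Col6a3. Col6a1 (chromosome 10, 76544626 to 76562002, minus strand) had 42.2, 45.3, 42.9 and 40.2 FPKM with vehicle and 38.8, 38.9, 36.0 and 38.1 FPKM with Mic-628. It fell by 10.9% (log2 change -0.17, SE 0.037; edgeR adjusted p = 0.00719), with separate groups. Col6a2 (chromosome 10, 76431596 to 76459464, minus strand), 85161 bases away on the same strand, had 22.98, 22.4, 23.2 and 21.7 FPKM with vehicle and 19.9, 20.5, 19.7 and 21.4 FPKM with Mic-628. It fell by 9.63% (log2 change -0.15, SE 0.036; edgeR adjusted p = 0.0180), again with separate groups, although library 4 of each group came close.

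Col6a3, the large chain encoded on chromosome 1, had 25.2, 27.8, 28.0 and 26.02 FPKM with vehicle and 25.5, 26.1, 25.1 and 25.7 FPKM with Mic-628. Its groups overlapped, and the log2 change of -0.06 (95% interval -0.13 to 0.009) was not called. Leaving out vehicle library 2 or Mic-628 library 3 ended the call of Col6a1 (edgeR adjusted p 0.0560 and 0.0561). That of Col6a2 ended when vehicle library 3 or Mic-628 library 1 or 3 was left out (0.0749, 0.0541 and 0.0918), and in DESeq2 when blocked by batch (0.273). Both calls ended without batch 2 (0.0992 and 0.117) or batch 3 (0.139 and 0.236).

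The rest of the other class was not called, so 2 of its 8 tested chains fell, against 2.25% of all tested rows. Col8a1, a chain of the network-forming type VIII collagen of vessel walls and cornea, had 18.5 ± 0.688 FPKM with vehicle and 17.6 ± 0.603 FPKM with Mic-628 (SD, n = 4 each; log2 change -0.08, edgeR adjusted p = 0.274). Col7a1, which encodes the anchoring fibrils that tie epidermis to dermis, had 1.17 ± 0.106 and 1.00 ± 0.0997 FPKM (SD, n = 4 each; log2 change -0.23, edgeR adjusted p = 0.141). Both had overlapping groups. Col17a1, a transmembrane collagen of epithelial cells, Col18a1, whose cleaved end is endostatin, and Col28a1 were at 0.292, 0.174 and 0.551 FPKM. Their log2 changes were 0.009, -0.0003 and 0.09.

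The other 18 genes were too weakly expressed to test. None had more than 9 counts in any library, the highest being Col22a1 at 0.0343 FPKM on average. Counts were 0 in every library for Col9a1, Col13a1, Col19a1 and Col26a1. A count of 0 allows up to 3 counts, or 0.130 to 0.166 CPM (counts scaled to library size) depending on the library, and this limit covers counting error only. Type II, IX and X collagens mark cartilage: Col2a1 was at 0.0045 FPKM in both groups and Col10a1 at 0.0193 and 0.0213 FPKM. Of the type IX chains, Col9a1 was at 0, Col9a2 at 0.0071 and Col9a3, which could be tested, at 0.263 FPKM on average. In the list of cartilage cell markers, 5 of 6 were under 0.1 FPKM. The exception, the transcription factor gene Sox9, was at 5.87 FPKM with vehicle and rose (log2 change 0.17, edgeR adjusted p = 0.0358, or 0.0684 with the batch block). DESeq2 did not call Sox9 (adjusted p = 0.0920), and it was called in only 7 of 23 alternatives. All 5 endothelial markers were under 0.1 FPKM. So were 4 of 6 epithelial, 3 of 5 macrophage and blood, 4 of 5 osteoblast, 3 of 4 adipocyte and 3 of 4 muscle markers, and none of the tested markers of these types was called. The osteoblast exception, Runx2, was at 9.24 FPKM with vehicle and 9.02 FPKM with Mic-628. The epithelial exceptions were Krt14 (1.51 and 1.57 FPKM) and Krt8 (0.412 and 0.605 FPKM), and the muscle exception was Des (0.214 and 0.252 FPKM). The summed macrophage and blood markers were 8.02 to 8.65 FPKM with vehicle and 8.82 to 9.60 FPKM with Mic-628, with Adgre1 at 0. Most of that sum was Cd68, at 6.59 and 7.42 FPKM on average (edgeR adjusted p = 0.260), and Csf1r, at 1.56 and 1.81 FPKM (edgeR adjusted p = 0.149). The summed adipocyte markers were 0.411 to 0.696 FPKM with vehicle and 0.798 to 1.17 FPKM with Mic-628, with Adipoq at 0. Most of that sum was 1 gene, Fabp4, at 0.452 and 0.844 FPKM on average (log2 change 0.91, edgeR adjusted p = 0.0748, not called). Of the other 2, Pparg went from 0.031 to 0.0753 FPKM and Plin1 from 0.0258 to 0 FPKM, both too low to test. Of 8 fibroblast markers, 8 were tested and 3 fell (Vim, Fn1 and Dcn), against 2.25% of all tested rows. Thy1 (log2 change 0.003), Pdgfra (0.03) and Pdgfrb (0.010) were not called, nor were S100a4 (-0.10) and Lum (-0.51). The summed level of the 8, most of it Vim and Fn1, was 4515 to 4684 FPKM with vehicle and 3927 to 4035 FPKM with Mic-628. The part of these marker shifts in the collagen result was not tested.

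Transcripts for the chains of one trimer were then compared with each other. A protein needs its chains in set proportions, but these are ratios of transcripts and chain proportions in the protein were not measured. The log2 ratio of 2 chains was taken in each library for the 7 pairs with both chains tested, and its group means were set against each other in a two-sided exact permutation test over the 8 libraries. The smallest p this allows is 0.0286. After Benjamini-Hochberg adjustment over 7 pairs, the 3 pairs that reached it had 0.0667, so no pair was called. A larger shift in these 3 pairs alone could not have lowered that value. The lack of a call therefore does not show that the ratios were unchanged. Col1a1 relative to Col1a2 was higher by 0.13 with Mic-628, from -2.44 ± 0.0394 to -2.30 ± 0.0527 (log2 CPM ratio, SD, n = 4 each; exact permutation p = 0.0286). Col6a1 relative to Col6a3 was lower by a difference of -0.10 (exact permutation p = 0.0286). Col5a1 relative to Col5a2 was higher by 0.06 (exact permutation p = 0.0286), or by 0.0368 without vehicle library 4. In each of these 3 pairs the libraries of both groups did not overlap.

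The 2 pairs whose chains both fell had ratios that overlapped between groups. These pairs are grouped here by calls from the same counts, so the overlap is a description and not a test of kept proportions. Col4a1 relative to Col4a2 differed by 0.03 (exact permutation p = 0.571, adjusted 0.733) and Col6a1 relative to Col6a2 by -0.02 (exact permutation p = 0.629, adjusted 0.733). In FPKM, Col4a1 stood at 1.21 ± 0.0493 of Col4a2 with vehicle and 1.24 ± 0.0736 with Mic-628, and Col6a1 at 1.89 ± 0.0890 and 1.86 ± 0.0746 of Col6a2 (SD, n = 4 each). Col4a5 relative to Col4a6 differed by 0.03 (exact permutation p = 0.429, adjusted 0.733). Col11a1 relative to Col11a2 varied widely with its low counts (-0.11; exact permutation p = 0.743). With 4 batch pairs an exact sign-flip test cannot give a p under 0.125, so that test of the ratios could not pass. No other paired test of the ratios was run.

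**Figure D3:**
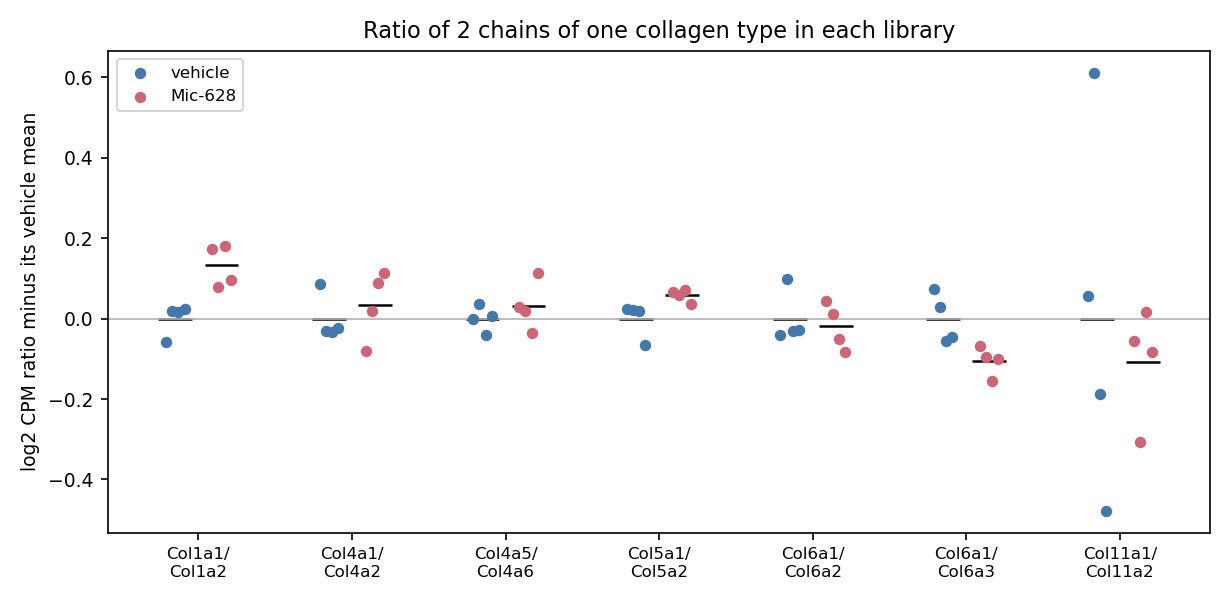
The log2 CPM ratio of the 2 chains of each of 7 pairs, minus its vehicle mean (vertical axis), is shown for every vehicle (blue) and Mic-628 (red) library, with group means as bars. The groups are apart for Col1a1/Col1a2, Col5a1/Col5a2 and Col6a1/Col6a3 and overlap for the other 4 pairs.

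Genes that act on collagen chains were taken from lists by role, and their counts are to be read against the 2.25% of all rows called lower and 2.13% called higher. Among the enzymes that hydroxylate and glycosylate chains, 4 of 13 tested fell and 0 rose (median log2 change -0.07). P4ha2, a catalytic subunit of prolyl 4-hydroxylase, had 56.0, 54.1, 51.3 and 45.1 FPKM with vehicle and 40.1, 46.7, 35.2 and 43.0 FPKM with Mic-628 (log2 change -0.32, edgeR adjusted p = 0.00237). Its groups overlapped by 1 library each. P4hb, the shared subunit (-0.14), and the lysyl hydroxylase genes Plod2 (-0.30) and Plod1 (-0.13) also fell. DESeq2 did not call P4ha2 (adjusted p = 0.0597), Plod2 (0.234) or Plod1 (0.0927), and the batch block in edgeR also ended the call of Plod1 (0.0875). Of 23 alternatives, P4ha2 was called in 18, P4hb in 16, Plod2 in 15 and Plod1 in 8. P4ha1, the other main catalytic subunit, was at 31.4 ± 2.42 and 31.6 ± 1.05 FPKM (SD, n = 4 each) and was not called.

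Of 10 genes for chaperoning and export, 1 fell and 0 rose, with a median of -0.009. The faller was Creb3l1, which encodes a transcription factor of the endoplasmic reticulum that activates collagen genes in osteoblasts (log2 change -0.28, edgeR adjusted p = 0.00822). Serpinh1, the collagen chaperone HSP47, was at 367 ± 9.83 FPKM with vehicle and 364 ± 15.6 FPKM with Mic-628 (SD, n = 4 each) and was not called; it was chosen after its values were seen. Hspa5 (0.07) and Mia2 (0.06) were not called.

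Propeptide cleavage and cross-linking genes went both ways: 3 of 9 tested fell and 2 rose (median -0.09). Pcolce, an enhancer of procollagen C-proteinase (-0.18), Lox, which encodes lysyl oxidase (-0.18), and Bmp1, the C-proteinase itself (-0.15), fell. Bmp1 was not called with the batch block (edgeR adjusted p = 0.0507) or in DESeq2 (0.0794). Loxl4, a paralog of Lox, rose from 6.71, 7.19, 6.70 and 6.51 FPKM to 9.11, 9.38, 9.82 and 9.54 FPKM (log2 change 0.48, edgeR adjusted p = 9.34e-08), with groups far apart. Tgm2, a transglutaminase gene, rose by 0.14 on the log2 scale.

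Among proteoglycans and glycoproteins that bind fibrils, 5 of 10 tested fell and 1 rose (median -0.22). The riser was Tnxb, which encodes tenascin X, at 0.609 ± 0.0456 FPKM with vehicle and 1.13 ± 0.0433 FPKM with Mic-628 (SD, n = 4 each; log2 change 0.90, edgeR adjusted p = 2.79e-09). Dcn, the small proteoglycan decorin, fell by 0.41 on the log2 scale. Fn1, which encodes fibronectin, and Bgn, which encodes biglycan, fell as well (-0.28 and -0.19). Fn1 and Dcn are also on the fibroblast marker list. Collagen receptors and uptake genes had 0 of 7 tested members called, Mrc2, an endocytic collagen receptor, being nearest (-0.11, edgeR adjusted p = 0.113), followed by Itga1, an integrin chain that binds collagen (0.28, edgeR adjusted p = 0.499). Of 4 tested collagenases and gelatinases, Mmp14 fell (-0.16, edgeR adjusted p = 0.00174) and Mmp2 was not called (-0.09, edgeR adjusted p = 0.103).

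**Figure D4:**
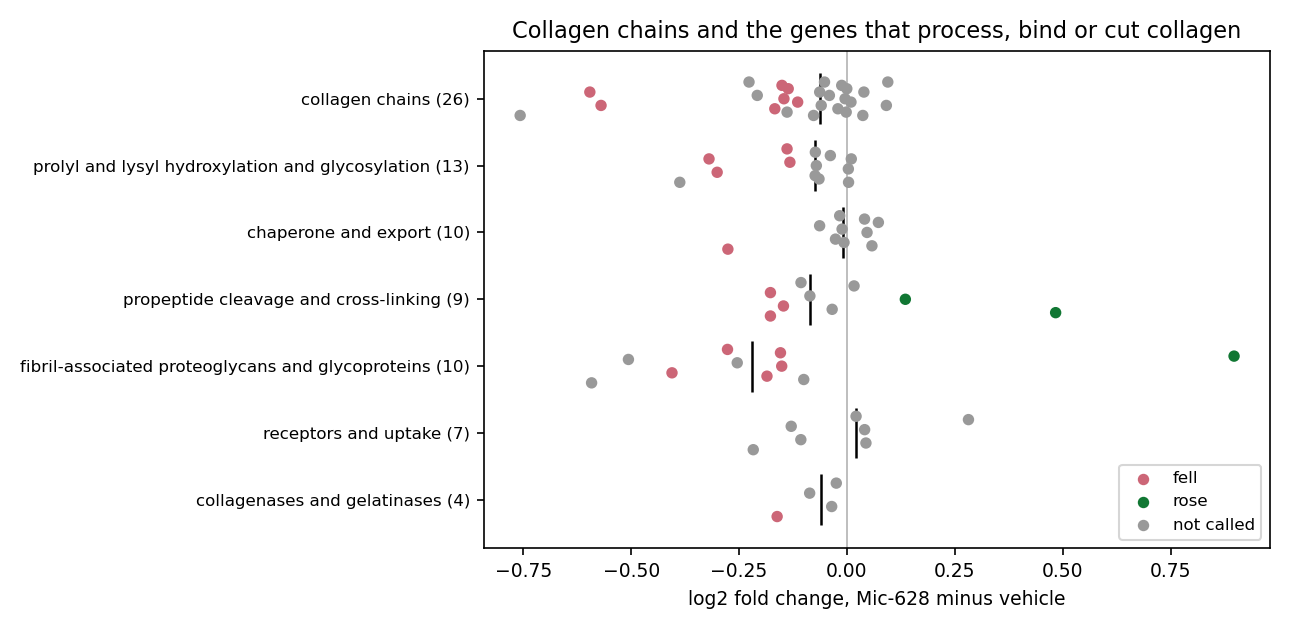
Each point is the log2 change (horizontal axis) of 1 tested gene, by list, with the number tested in parentheses, the list median as a bar, and colour for genes that fell (red), rose (green) or were not called (grey). The 26 collagen chains have a median of -0.06; Tnxb (0.90) and Loxl4 (0.48) are the points farthest to the right.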

How the data were processed

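Poly(A) RNA of 8 NIH3T3 libraries was sequenced as paired ends from a stranded kit, per the labels' protocols. The submitters' processing notes name bcl2fastq, STAR 2.7.10a, HOMER 4.11 and build mm39 without roles. The authors deposited exon counts per canonical transcript, in steps of 0.5 and treated as estimated counts, and FPKM values that recomputation from counts, exon length and header totals matched within 5e-04. Counts on listed transcripts summed to 18106347 to 23158317 per library. The rounded counts went into edgeR 4.0.16 under R 4.3.3 (filterByExpr with a minimum count of 10, TMM, quasi-likelihood F test, Benjamini-Hochberg over 17128 rows), after a check on simulated data. The standard error is the log2 fold change divided by the square root of F. The variation between libraries that edgeR names biological was estimated at 3.47%, and it is possibly technical here.

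Named genes are all called collagen genes, the 10 of highest mean FPKM, both chains of tested pairs, and 2 to 4 members of each pathway list, those with the smallest p; others are named to account for every member, and Bmp1, P4ha1, Serpinh1 and the markers were added after their values were seen. Members and lists were chosen with earlier results of these data known. The labels state a shared batch, so the numbers pair the libraries, although deviations from group means correlated within numbers at only -0.0939 to 0.0781 over 10450 genes. Alternatives were a batch block, DESeq2 1.42.0 with and without it, other scalings and filters, limma-trend (limma 3.58.1) on FPKM, summed rows, and leaving out libraries or batches. No 2 replicates agreed within counting noise (chi-square per gene 1.73 to 5.79).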

Additional observations from a re-analysis of the deposited data

Results flagged for a closer look

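In 46 groups of 4 libraries (named collagen genes in FPKM and chain ratios in log2 CPM), 5 had 1 library far from the other 3, where chance gives about 1 group in 20. All 5 were vehicle libraries. Vehicle library 3 had 40.6 FPKM of Col5a2, against 39.5 to 39.6 in the others. The log2 ratio of Col1a1 to Col1a2 was -2.50 in vehicle library 1, against -2.42 to -2.41. The log2 ratio of Col4a1 to Col4a2 was 0.39 in vehicle library 1, against 0.27 to 0.28. For Col5a1 to Col5a2 it was 0.32 in vehicle library 4, against 0.41 in each of the others. For Col6a1 to Col6a2 it was 1.07 in vehicle library 2, against 0.93 to 0.94.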

How the results depend on the processing

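The count of 7 collagen genes called lower was 5 to 7 when single libraries were left out (1.19% to 2.48% of all rows), and 2 without batch 2 or without batch 3. It was 6 without batch 1 and 7 without batch 4 (2.14% and 2.2% of all rows). It was 6 with the replicate block in edgeR, 4 with the replicate block in DESeq2 (0.695% of all rows called lower) and 6 in DESeq2 without it. In edgeR the block ended the call of Col4a1 and of no other collagen gene. It was 2 by limma-trend with a mean FPKM of at least 0.5 and a pseudocount of 1 or 0.1 (0.715% and 0.709% of rows), and 0 by limma-trend over all rows (0.16%). With an adjusted p under 0.01 it was 5. The count called higher was 0 in all of these. None of the 7 called collagen genes changed direction in any alternative. Among genes not called, with values near 0, Col5a1 was above 0 in DESeq2 (0.000574, or 0.000976 with the block), with DESeq2 size factors (0.000587) and with library size only (0.00429), and ranged from -0.0241 to 0.0134 when libraries were left out and was 0.000512 and 0.0160 without batches 2 and 3. Col1a1 was 0.00162 with library size only, and ranged from -0.0252 to 0.0117 when libraries were left out, with 0.0278 and 0.00419 without batches 2 and 4. Col11a2 was 0.000518 by limma-trend on log2(FPKM + 0.1), ranged from -0.0650 to 0.0485 when libraries were left out and was 0.0869 without batch 4; Col11a1 ranged from -0.235 to 0.0337 and was 0.128 without batch 2; Col16a1 ranged from -0.00215 to 0.0651 and was -0.0141 without batch 4. With libraries left out the Col6a1/Col6a2 ratio difference ranged from -0.0410 to 0.0135 and that of Col11a1/Col11a2 from -0.267 to 0.0964. That of Col4a1/Col4a2 ranged from 0.00820 to 0.0730, of Col4a5/Col4a6 from 0.00415 to 0.0534, and of Col5a1/Col5a2 from 0.0368 (without vehicle library 4) to 0.0667. P4ha1, not called, ranged from -0.0311 to 0.0425 when libraries were left out and was -0.0529 without batch 4; Serpinh1, not called, ranged from -0.0306 to 0.0102. The 19 called genes of the role and marker lists kept their direction in every alternative; with the block 16 were still called, and only Loxl4 was called in all 23. Depth limits the 18 untested genes and the weakly expressed chains with wide intervals.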
